A study of Homo sapiens with 6 samples.

Results

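Ephrins, semaphorins and the receptors that read them (the Eph receptors and the plexins) were described in BCPAP, a human papillary thyroid carcinoma cell line, after a short hairpin RNA that targets CSF2, which encodes the cytokine GM-CSF. The members were all genes whose own probe sets carry a symbol of the EPHA, EPHB, EFNA, EFNB, SEMA or PLXN families, which gave 50 of 18132 genes and 150 of 49293 probe sets. A gene was read from its brightest probe set, by the mean of the 6 arrays, and no measured difference entered that choice of probe set. The families themselves were chosen with earlier results of these data known. The cells labelled shCSF2 (n = 3 arrays) carried a CSF2-targeting hairpin and the cells labelled shCtrl (n = 3 arrays) a non-targeting one. Both were delivered by lentivirus, and after 48 hours all cells were kept in puromycin for 7 days, so each array reads a selected population and not a clone. The number of hairpins is not given in the sources used here, and no probe set carries the symbol CSF2, so the knockdown itself is not analysed here.

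Values are log2 expression summaries of Affymetrix PrimeView arrays. Array medians lay between 5.77 and 5.79, and the lowest correlation across probe sets was 0.998 within groups and 0.994 between groups (over probe sets, which are not independent of each other). Of the thyroid markers, the transcription factor genes NKX2-1 and PAX8 had mean log2 values of 9.37 and 8.07 in shCSF2 cells, against 9.78 and 8.11 in shCtrl cells. The thyroglobulin gene TG was at 4.58 in shCSF2 and 4.61 in shCtrl cells, and the thyrotropin receptor gene TSHR at 3.88 in shCSF2 and 3.86 in shCtrl cells, both below the median of 6.28 over genes. Of the epithelial markers, the keratin gene KRT18 was at 11.8 in shCSF2 and 11.7 in shCtrl cells, whereas the E-cadherin gene CDH1 was low, at 3.62 in shCSF2 and 3.52 in shCtrl cells. KRT8 fell (log2 fold change -0.26, limma adjusted p = 0.00518), as did NKX2-1 (log2 fold change -0.42, limma adjusted p = 0.000315). Of 4 neuronal markers, SNAP25 (-0.21) and TUBB3 (-0.14) fell, and their part in the results below was not tested. RNA from fewer cells and less RNA per cell cannot be told apart in such bulk samples. Precision is limited by the number of arrays.

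Ephrins are ligands held in the membrane, the A class by a lipid anchor and the B class by a transmembrane segment, and they bind Eph receptor tyrosine kinases on a neighbouring cell. Both partners can signal, and the contact commonly ends in repulsion, adhesion or sorting of cells. Semaphorins are secreted (class 3) or membrane-bound ligands of the plexins, receptors whose cytoplasmic part acts on small GTPases of the Ras and Rap type, and most class 3 members need a neuropilin co-receptor. The families were first studied in growing axons and vessels, and in carcinomas they are known for effects on migration and cell contact.

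The promoters of EFNA5 and EPHA2 are shown because this ligand and this receptor, which bind each other, moved in opposite directions and each has 1 listed transcription start. Each line gives the 250 bases before the start on the gene's strand, from RefSeq on GRCh38.p14, EFNA5 at chr5:107670938-107671187 and EPHA2 at chr1:16156070-16156319, both on the minus strand. Capitals mark a match to TGACGTCA, the cyclic AMP response element.
EFNA5: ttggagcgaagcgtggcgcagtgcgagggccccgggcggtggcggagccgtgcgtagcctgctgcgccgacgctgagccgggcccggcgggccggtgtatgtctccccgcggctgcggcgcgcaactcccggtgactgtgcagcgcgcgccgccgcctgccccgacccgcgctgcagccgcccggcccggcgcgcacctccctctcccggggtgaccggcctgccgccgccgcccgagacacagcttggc
EPHA2: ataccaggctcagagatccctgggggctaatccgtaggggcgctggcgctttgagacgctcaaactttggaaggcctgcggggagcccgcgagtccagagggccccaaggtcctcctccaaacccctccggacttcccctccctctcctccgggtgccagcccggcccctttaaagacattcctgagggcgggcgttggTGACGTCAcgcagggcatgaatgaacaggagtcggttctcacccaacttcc
The EFNA5 window had a GC content of 79.6% with 41 CpG dinucleotides, and the EPHA2 window 63.2% with 15. On both strands, 4 motifs that do not overlap one another were searched: TGACGTCA, the AP-1 site TGANTCA, the STAT site TTCNNNGAA and the EGR1 site GCGTGGGCG. The EPHA2 window held TGACGTCA and none of the other letters, and the EFNA5 window held none of the 4. Among 35116 such windows of all genes, 1.65% held TGACGTCA, 6.57% TGANTCA, 6.57% TTCNNNGAA and 0.720% GCGTGGGCG. Of 71 windows of the 45 members with a listed start, 3, 1, 4 and 1 held the motifs in the same order. A match is a run of letters and no evidence of binding. The letters were chosen with earlier results of these data known.

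The comparison of shCSF2 with shCtrl asks how these contact and guidance genes differ when CSF2 is targeted. Of the 50 genes, 4 were higher and 17 lower in shCSF2 cells at a limma adjusted p of 0.05. Over all genes tested, 16.7% were higher and 16.0% lower, 32.7% in either direction. The genes that rose were PLXNC1, SEMA4B, EPHA2 and PLXNA2. The genes that fell were EPHA5, EPHA7, EPHA4, EPHA6, EPHB1, EFNA5, EFNA4, EFNB3, SEMA6D, SEMA5A, SEMA4F, SEMA4D, SEMA4C, SEMA3B, SEMA3F, PLXND1 and PLXNA1. Most differences were small: 2 of the 21 called genes changed by at least 1.5-fold (EPHA5 and PLXNC1) and 0 by at least 2-fold. Of the 5930 genes called among all genes, 431 changed by at least 1.5-fold and 57 by at least 2-fold. These 431 were 2.38% of all genes tested, a share to be set beside 2 of the 50. The median log2 fold change was -0.08 over the 50 genes and -0.03 over all genes. In 29 of the 50 the arrays of the groups did not overlap, 24 of them with shCSF2 below shCtrl and 5 above. Over all genes 46.7% had no overlap, 24.6% with shCSF2 below and 22.1% with shCSF2 above. No gene was left out for low signal, and 37 of the 50 reached a mean of 5 on the log2 scale, of which 17 were called, or 45.9%, where 43.4% of all genes that bright were called. Of the 13 dimmer ones, 4 were called (EPHA5, EPHA6, EPHA7 and SEMA3B, all lower), where 9.27% of all genes that dim were called.

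**Figure D1:**
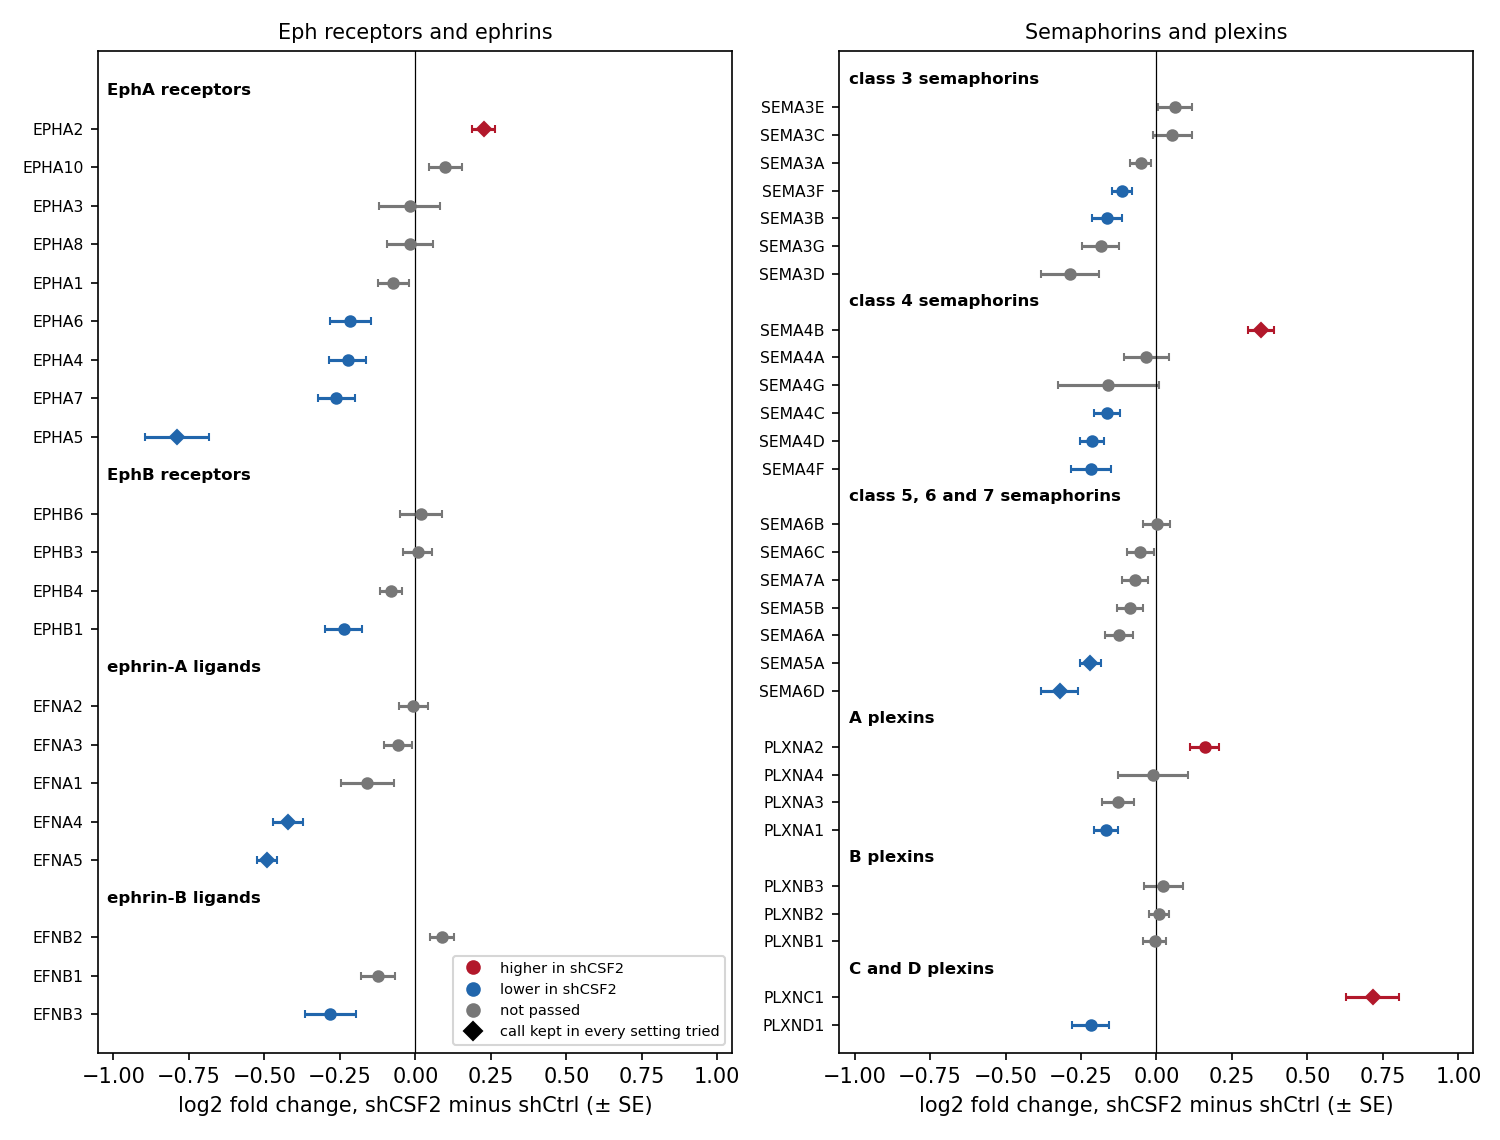
Log2 fold change (shCSF2 minus shCtrl, horizontal axis) with its moderated standard error for each of the 50 genes, by family. Red points are higher, blue points lower and grey points not past an adjusted p of 0.05, and diamonds mark the 8 called genes whose call was kept in every setting tried that held them. PLXNC1 lies farthest right at 0.72 and EPHA5 farthest left at -0.79.

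The count of lower genes depended on single arrays. It was 7 without shCtrl replicate 1, 9 without shCSF2 replicate 1, 9 without shCSF2 replicate 2, 10 without shCtrl replicate 2 and 11 without shCtrl replicate 3. Without shCSF2 replicate 3 it was 14. Over all genes, 12.5% to 13.9% were lower in the fits without 1 array, against 16.0% in the main fit. The count was also 11 with each gene's probe sets averaged, where 16.5% of all genes were lower. Among genes at or above the median level, which hold 24 of the 50, it was 11, where 29.8% of all such genes were lower. No call of the main fit was lost in that last setting, which holds fewer genes. The count of higher genes was 3 or 4 in each fit without 1 array. Of the 21 calls, 8 were kept in every setting that held the gene: PLXNC1, SEMA4B and EPHA2 among the higher genes, and EPHA5, EFNA5, EFNA4, SEMA6D and SEMA5A among the lower ones. The other 13 lost their call in at least 1 setting. The settings did not test the 8 equally. EFNA4 has 1 probe set, so averaging probe sets or taking the most variable left its values unchanged. EPHA5, at a mean of 4.56, was held by neither filter on level, and PLXNC1, EFNA4 and SEMA6D not by the filter at the median.

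**Figure D2:**
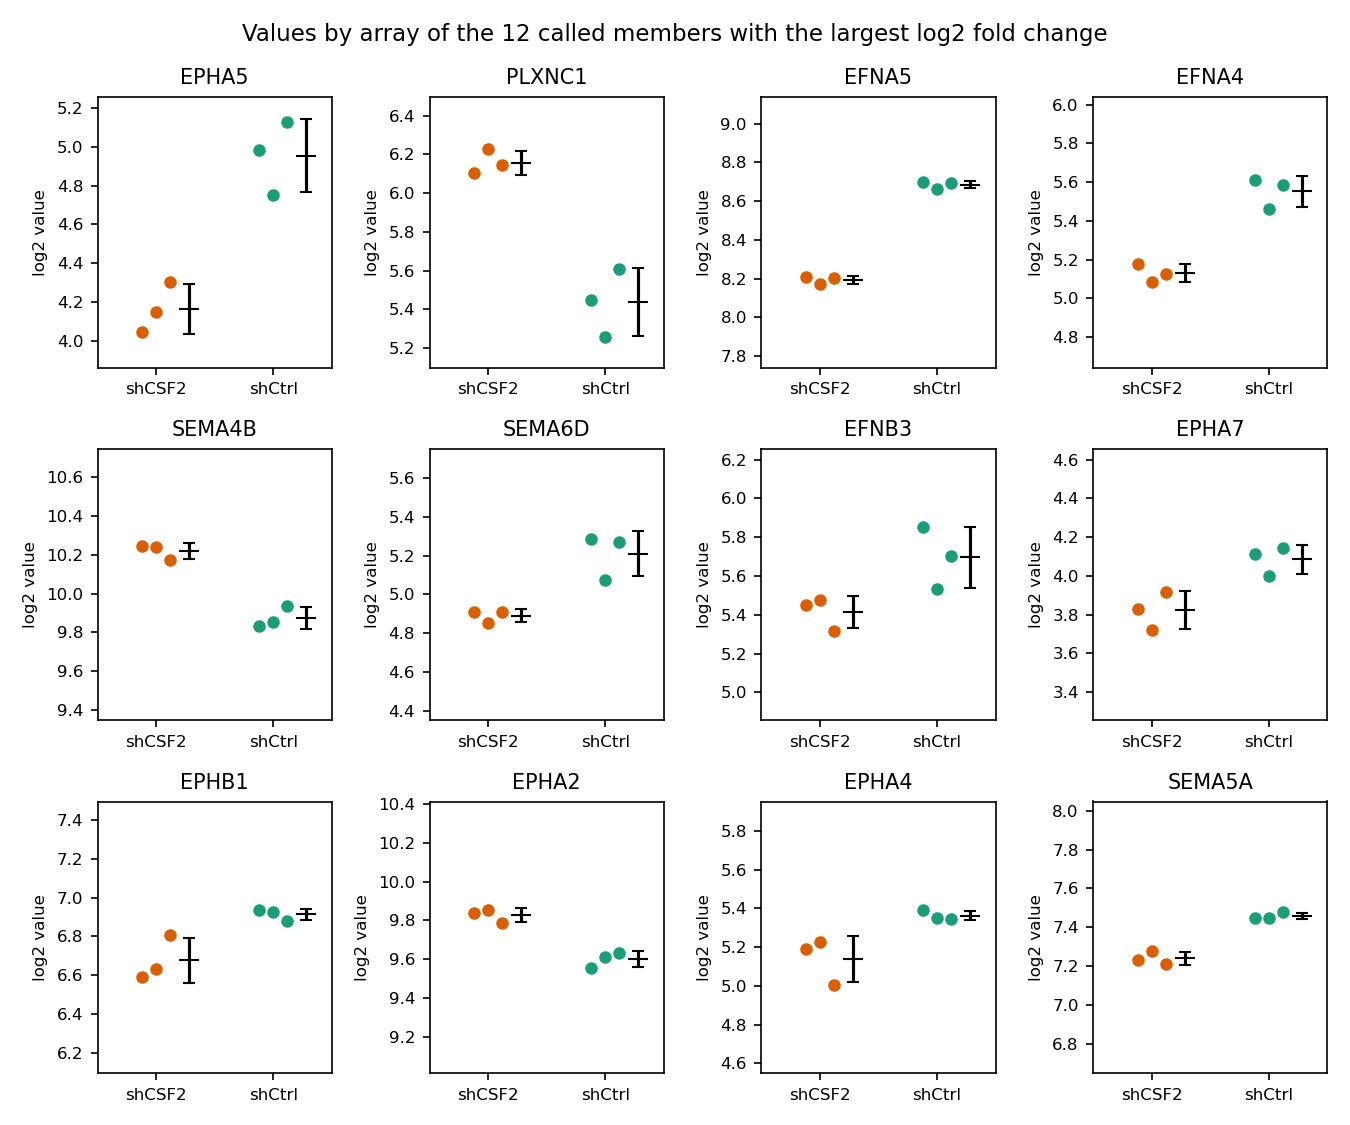
Log2 values by array for the 12 called genes that differed most on the log2 scale, with shCSF2 left of shCtrl in each panel. Points are arrays, the bars beside them the mean and SD (n = 3), and every vertical axis spans the same range. In all 12 panels the 3 shCSF2 arrays lie on 1 side of the 3 shCtrl arrays, above them for PLXNC1, SEMA4B and EPHA2 and below them for the other genes.

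Among the 9 EphA receptor genes, 1 rose and 4 fell, where 16.7% of all genes rose and 16.0% fell. EPHA2, which is widely expressed in epithelial cancers, had log2 values of 9.84, 9.85 and 9.79 in shCSF2 cells, against 9.56, 9.61 and 9.63 in shCtrl cells. All shCSF2 arrays were above all shCtrl arrays, and the fold change was 1.17 (log2 0.23 ± 0.04, SE, n = 3 arrays per group; limma adjusted p = 0.00430). Both probe sets of EPHA2 rose, by 0.23 each.

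EPHA5, a receptor best known from the nervous system, had 4.04, 4.15 and 4.30 in shCSF2 cells, against 4.98, 4.75 and 5.13 in shCtrl cells. The groups were separate, and the level was 1.73-fold lower in shCSF2 cells (log2 -0.79 ± 0.11, limma adjusted p = 0.00146), the largest difference among the 50 genes by the probe set used. Its other probe set, with means of 2.91 in shCSF2 and 2.96 in shCtrl cells, did not pass (-0.06 ± 0.06), and the average of both gave -0.42.

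EPHA7, EPHA4 and EPHA6, also receptors of ephrin-A ligands, fell by less. EPHA7 had log2 values of 3.83, 3.72 and 3.92 in shCSF2 cells, against 4.11, 4.0 and 4.14 in shCtrl cells (log2 fold change -0.26 ± 0.06). EPHA4, which also binds ephrin-B ligands, had 5.19, 5.23 and 5.00 in shCSF2 cells, against 5.39, 5.35 and 5.35 in shCtrl cells (-0.22 ± 0.06). In both genes the groups did not overlap, but the calls rested on 1 probe set. Of the 4 probe sets of EPHA4, 1 was lower and another higher (0.15 ± 0.05), so its direction is uncertain, and of the 5 of EPHA7 only the brightest passed. With all probe sets averaged EPHA4 was at -0.07 and EPHA7 at -0.03, and neither passed. EPHA4 also lost its call without any 1 of the shCtrl replicates (adjusted p 0.0696 to 0.0901) and with cyclic loess (0.0591), and EPHA7 without shCtrl replicate 1 (0.0582) or 3 (0.0604). EPHA6 was at -0.22 ± 0.07 with a limma adjusted p of 0.0497, and by its most variable probe set it was at 0.17 with no call. Its call was lost without shCSF2 replicate 1 or 2 and without shCtrl replicate 1 or 2 (adjusted p 0.0961 to 0.138). Median centring (0.0553), renewed quantile normalisation (0.0799), cyclic loess (0.0787), the variance trend (0.0699) and the mean of its probe sets (-0.02, 0.778) ended it too. EPHA1, EPHA3, EPHA8 and EPHA10 did not pass, with log2 fold changes between -0.07 (EPHA1) and 0.10 (EPHA10).

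Of the 4 EphB receptor genes read here, EPHB1 fell and the others did not pass. EPHB2 had no probe set under its own symbol alone and was not read. EPHB1, a receptor of ephrin-B ligands, had 6.59, 6.63 and 6.81 in shCSF2 cells, against 6.93, 6.93 and 6.88 in shCtrl cells. The third shCSF2 array lay close to the lowest shCtrl array. The difference was -0.24 ± 0.06 (log2, limma adjusted p = 0.0231), 3 of its 6 probe sets were lower and 0 higher, and the call was lost without shCSF2 replicate 1 or 2 and without shCtrl replicate 1 or 2 (adjusted p 0.0673 to 0.0716). EPHB4, the partner of ephrin-B2 in vessel development, was at -0.08 ± 0.04, EPHB3 at 0.01 ± 0.05 and EPHB6, whose kinase is inactive, at 0.02 ± 0.07.

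The ephrin genes showed 3 falls and no rise among 8, where 16.0% of all genes fell and 16.7% rose, so few rises were to be looked for among 8. EFNA5, a ligand of most EphA receptors, had log2 values of 8.21, 8.17 and 8.21 in shCSF2 cells, against 8.70, 8.66 and 8.69 in shCtrl cells. The arrays within each group were nearly equal and the groups far apart, which gave the lowest adjusted p among the 50 genes (log2 -0.49 ± 0.03, limma adjusted p = 0.000102). Its next probe set was lower too (-0.33 ± 0.04), and the third, with means of 5.46 in shCSF2 and 5.65 in shCtrl cells, did not pass (-0.19 ± 0.07).

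EFNA4, another ephrin-A ligand, had 5.18, 5.09 and 5.13 in shCSF2 cells, against 5.61, 5.46 and 5.58 in shCtrl cells. The groups were apart by more than the spread within either, and the gene was 1.34-fold lower (log2 -0.42 ± 0.05, limma adjusted p = 0.000920) by its single probe set. EFNA1, the ligand first linked to EPHA2, did not pass (-0.16 ± 0.09), nor did EFNA2 (-0.01 ± 0.05) or EFNA3 (-0.06 ± 0.05).

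EFNB3, a transmembrane ephrin, had 5.45, 5.47 and 5.32 in shCSF2 cells, against 5.85, 5.53 and 5.70 in shCtrl cells. The second shCtrl array was close to the shCSF2 arrays, and the call (log2 -0.28 ± 0.08, limma adjusted p = 0.0421) was lost without any 1 array other than shCtrl replicate 2 (adjusted p 0.0651 to 0.116), with cyclic loess (0.0554) and when its 3 probe sets were averaged (-0.12). EFNB2, the ephrin of arterial vessels, had a mean of 8.17 ± 0.05 in shCSF2 and 8.08 ± 0.02 in shCtrl cells (SD, n = 3). It did not pass by the probe set used (0.09, 95% interval -0.00 to 0.18), although its 3 shCSF2 arrays lay above the shCtrl arrays and 1 of its 4 probe sets was higher. EFNB1 did not pass (-0.12 ± 0.06), and 1 of its 3 probe sets, the most variable, was lower (-0.25 ± 0.06).

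Of 20 semaphorin genes, 1 rose and 7 fell, beside 16.7% and 16.0% of all genes. SEMA4B, a membrane semaphorin, had log2 values of 10.24, 10.24 and 10.17 in shCSF2 cells, against 9.83, 9.85 and 9.94 in shCtrl cells. The groups were separate (1.27-fold higher, log2 0.34 ± 0.04, limma adjusted p = 0.00111), and its second probe set rose as well (0.26 ± 0.05). The other called members of class 4, SEMA4D (-0.21 ± 0.04), SEMA4F (-0.22 ± 0.07) and SEMA4C (-0.16 ± 0.04), all fell. SEMA4D, the ligand of PLXNB1, was called by 1 of its 5 probe sets and lost its call with all averaged (-0.05) and by the most variable (-0.01). SEMA4F lost its call without any 1 of the 6 arrays (adjusted p 0.0512 to 0.119), with all probe sets averaged (-0.10) and by the most variable (-0.20). SEMA4C, a ligand of PLXNB2, lost it without shCSF2 replicate 1 or 2 and without shCtrl replicate 1 or 3 (0.0560 to 0.0791). SEMA4A (-0.03 ± 0.07) and SEMA4G (-0.16 ± 0.17) did not pass.

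SEMA6D, a transmembrane ligand of PLXNA1, had 4.91, 4.85 and 4.91 in shCSF2 cells, against 5.29, 5.08 and 5.27 in shCtrl cells. The shCSF2 arrays were all below the shCtrl arrays (1.25-fold lower, log2 -0.32 ± 0.06, limma adjusted p = 0.00696). Of its 4 probe sets 2 were lower, and the average of all was -0.17.

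SEMA5A, a semaphorin with thrombospondin repeats, had 7.23, 7.28 and 7.21 in shCSF2 cells, against 7.45, 7.45 and 7.48 in shCtrl cells. The difference was small beside that of EPHA5 but larger than the spread within groups (log2 -0.22 ± 0.04, limma adjusted p = 0.00324). All 5 of its probe sets had a negative log2 fold change, between -0.13 and -0.42, and 3 passed. SEMA7A, a lipid-anchored ligand of PLXNC1 and integrins, did not pass, with 8.83 ± 0.06 in shCSF2 and 8.90 ± 0.04 in shCtrl cells (mean ± SD, n = 3; difference -0.07, 95% interval -0.17 to 0.03). SEMA5B, SEMA6A, SEMA6B and SEMA6C did not pass either. SEMA6C was lower with its 2 probe sets averaged (-0.13) and by the more variable (-0.20), and SEMA6A with its 4 averaged (-0.13).

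Of the 7 class 3 genes, SEMA3F (-0.11 ± 0.03) and SEMA3B (-0.16 ± 0.05) fell by the probe set used. Both are secreted ligands first described as candidate tumour suppressors of a shared chromosome region, and both values came from probe sets that the maker marks as open to binding by other transcripts (suffix _x_at). SEMA3F lost its call without any 1 array other than shCSF2 replicate 3 (adjusted p 0.0853 to 0.108), while another of its probe sets was lower by more (-0.29 ± 0.06). SEMA3B lost it without shCSF2 replicate 1 or 2, without shCtrl replicate 1 or 2 (0.0884 to 0.120) and with its 3 probe sets averaged (-0.07). It also lost it with median centring (0.0507), renewed quantile normalisation (0.0725), cyclic loess (0.0809), the variance trend (0.0936) and the most variable probe set (-0.05). SEMA3C, a secreted ligand with known roles in carcinoma cell migration, had 8.72 ± 0.08 in shCSF2 and 8.67 ± 0.10 in shCtrl cells (mean ± SD, n = 3), and SEMA3A, which collapses growth cones, 7.57 ± 0.02 in shCSF2 and 7.62 ± 0.04 in shCtrl cells. Neither passed, with 95% intervals of the difference of -0.10 to 0.21 and -0.14 to 0.03. SEMA3D (-0.29 ± 0.10) and SEMA3G (-0.19 ± 0.06) lay below shCtrl on all 3 shCSF2 arrays but did not pass. Both passed with the variance trend, SEMA3D also without shCtrl replicate 3 (-0.36, adjusted p = 0.0395 by limma), and SEMA3G without shCSF2 replicate 2 (-0.25, 0.0114) and among genes with a mean of at least 5 (0.0258). SEMA3E, the ligand of PLXND1, did not pass by the probe set used (0.06 ± 0.06), whereas another of its 3 probe sets rose, with 4.58, 4.68 and 4.56 in shCSF2 cells, against 4.03, 3.92 and 4.20 in shCtrl cells (0.56 ± 0.07). With its probe sets averaged SEMA3E passed as higher (0.24 ± 0.05).

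Of the 9 plexin genes, 2 rose and 2 fell, beside 16.7% and 16.0% of all genes. PLXNC1, the receptor of SEMA7A, had log2 values of 6.10, 6.23 and 6.14 in shCSF2 cells, against 5.45, 5.26 and 5.61 in shCtrl cells. The lowest shCSF2 array stood well above the highest shCtrl array, and the gene was 1.64-fold higher (log2 0.72 ± 0.09, limma adjusted p = 0.001). Its other probe set, with 4.27, 4.32 and 4.27 in shCSF2 cells, against 3.47, 3.78 and 3.55 in shCtrl cells, rose by a similar amount (0.68 ± 0.08).

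PLXNA2, a receptor of class 3 and class 6 semaphorins, was higher by both of its probe sets, but by different amounts. The probe set used gave 6.75, 6.64 and 6.77 in shCSF2 cells, against 6.60, 6.56 and 6.53 in shCtrl cells (log2 0.16 ± 0.05, limma adjusted p = 0.0389). The other gave 5.45, 5.23 and 5.26 in shCSF2 cells, against 4.81, 4.81 and 4.62 in shCtrl cells (0.57 ± 0.08). In both the groups did not overlap. The call by the first was lost without any 1 array other than shCSF2 replicate 2 (adjusted p 0.0568 to 0.112) and with renewed quantile normalisation (0.0583). The average of both was 0.36.

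PLXND1, the vascular plexin, fell by both of its probe sets (-0.22 ± 0.06 and -0.31 ± 0.05), and lost the call by the first without shCSF2 replicate 2 or 3 and without shCtrl replicate 1 or 3 (adjusted p 0.0589 to 0.0907). PLXNA1, which pairs with neuropilins, fell by the probe set used (-0.17 ± 0.04, limma adjusted p = 0.0171), while its other probe set showed a log2 fold change of 1.97e-06 and no call, and the average of both did not pass (-0.08). Its call was lost without shCSF2 replicate 1 or 2 and without shCtrl replicate 2 (adjusted p 0.0507 to 0.0564). PLXNA3 did not pass (-0.13 ± 0.05) with its shCSF2 arrays below its shCtrl arrays, and PLXNA4 was at -0.01 ± 0.11. The B plexins, which link semaphorin signals to RhoA through PDZ-RhoGEF and LARG, were the family with the smallest differences. PLXNB2 had 7.82 ± 0.01 in shCSF2 and 7.81 ± 0.02 in shCtrl cells (mean ± SD, n = 3; 95% interval of the difference -0.07 to 0.08). PLXNB1 had an interval of -0.09 to 0.08 and PLXNB3 of -0.13 to 0.18. The probe sets used for PLXNB2 and PLXNB3, and for SEMA6B, also carry the suffix _x_at.

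**Figure D3:**
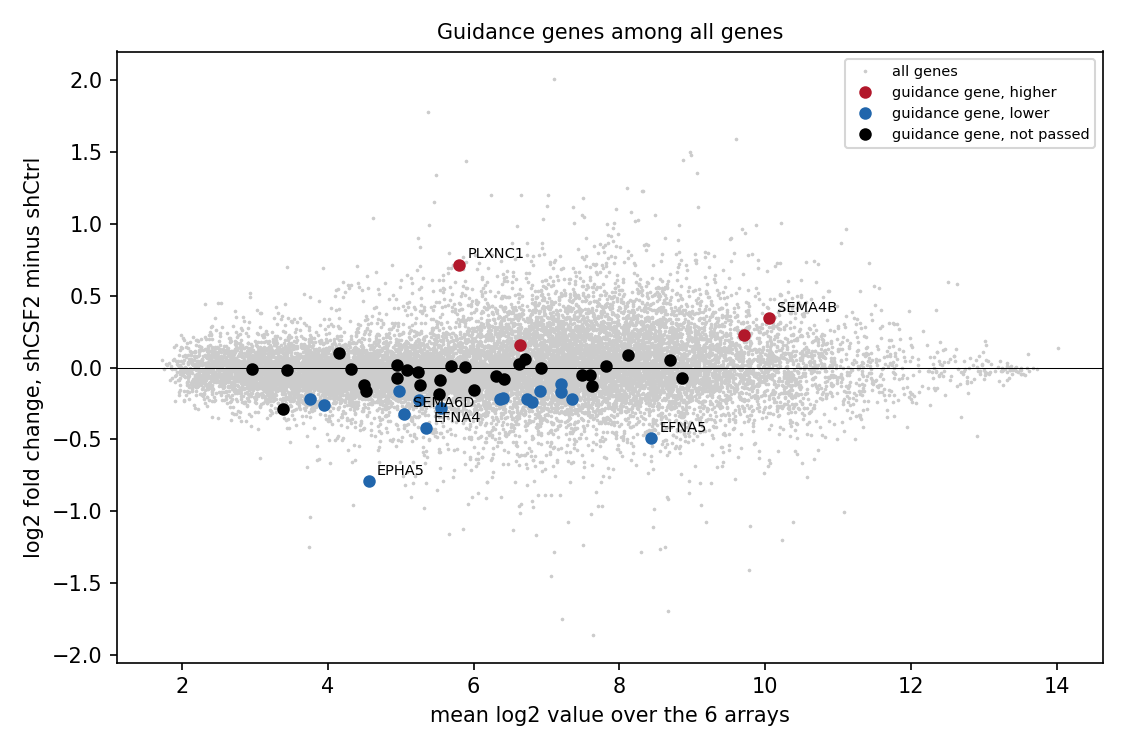
Log2 fold change (shCSF2 minus shCtrl) against the mean log2 value over the 6 arrays for all 18132 genes (grey) and the 50 guidance genes (red higher, blue lower, black not passed). The 6 labelled genes changed by more than 0.3, and the guidance genes lie within the range of the other genes, which reaches 2.01 and -1.86.

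Probe sets of a gene did not always move together. Of the 150 probe sets, 11 were higher and 23 lower at a limma adjusted p of 0.05 over all probe sets, where 15.3% of all probe sets were higher and 13.8% lower. Of the 43 genes read by several probe sets, 5 had all of them called in 1 direction: EPHA2, PLXNC1, SEMA4B and PLXNA2, which were higher, and PLXND1, which was lower. In 23 of the 43 no probe set was called, and EPHA4 was the 1 gene with calls in both directions. The probe sets used for EPHA6, SEMA3B, SEMA3F and SEMA4F passed when adjusted over genes but not over probe sets, and stand in grey in the plot of probe sets. All 4 genes that rose thus did so by every probe set, whereas of the 17 that fell PLXND1 and the genes with a single probe set, EFNA4 and SEMA4C, did. The 2 directions are not alike in this, as each gene that rose had 2 probe sets and those that fell had from 1 to 6 (EPHB1). Of EPHA5, PLXNA1 and PLXND1, which fell and also had 2, PLXND1 fell by both.

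**Figure D4:**
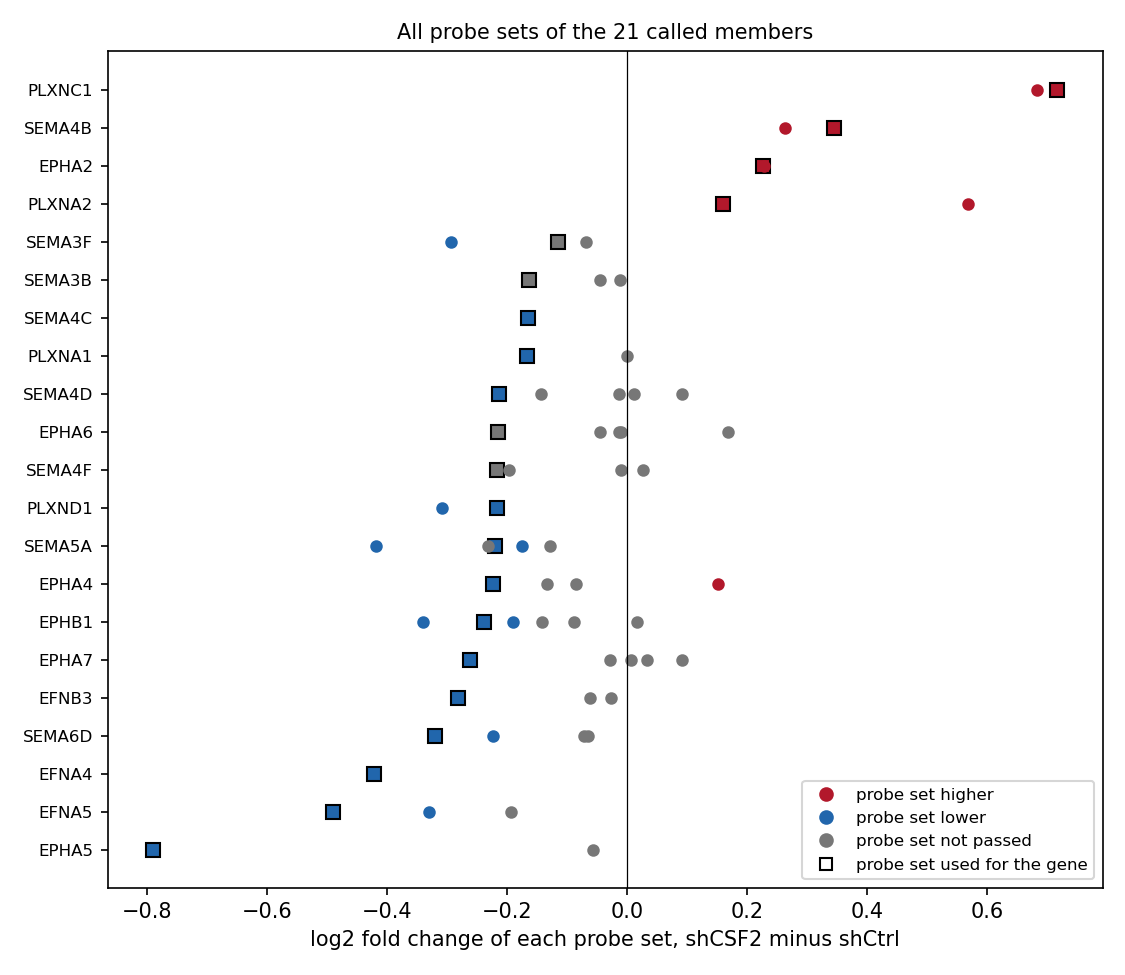
Log2 fold change (shCSF2 minus shCtrl) of every probe set of the 21 called genes. Squares are the probe sets used for the genes, circles the others, red higher, blue lower and grey not passed at an adjusted p of 0.05 over all probe sets. The 2 probe sets of PLXNC1 lie close together at 0.72 and 0.68, those of PLXNA2 apart at 0.16 and 0.57, and those of EPHA4 on both sides of 0.

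The genes that work with these receptors were read from 3 lists. The shares over all genes, 16.7% higher and 16.0% lower, are to be set beside the counts of each list. Of 30 measured co-receptors and effectors of plexins, 3 rose and 9 fell, and the median difference was -0.09 on the log2 scale. NRP1, the neuropilin that binds class 3 semaphorins and VEGF, had log2 values of 8.31, 8.20 and 8.18 in shCSF2 cells, against 7.39, 7.41 and 7.35 in shCtrl cells. The groups were far apart (1.80-fold higher, log2 0.85 ± 0.05, limma adjusted p = 4.86e-05), 4 of its 6 probe sets rose and 0 fell, and the average of all was 0.45. NRP2, the other neuropilin and named here outside the rule with its value known, did not pass (0.06 ± 0.05). RND1, a GTPase that binds plexins, rose (0.43 ± 0.04), whereas FARP1, a Rac exchange factor, fell (-0.56 ± 0.05). DPYSL3, a collapsin response mediator, fell (-0.44 ± 0.04, or -0.24 with both probe sets averaged).

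Of 28 measured effectors of Eph receptors and ephrin partners, 5 rose and 6 fell, with a median of -0.02. The kinase gene ABL2 (0.40 ± 0.04) and the adaptor genes GRB10 (0.33 ± 0.03) and ITSN2 (0.29 ± 0.04) rose, and the transcription factor gene STAT3 (-0.28 ± 0.04) fell. With all probe sets averaged ABL2 was at 0.21 and GRB10 at 0.16. The probe set used for ITSN2 carries the suffix _x_at. Of 28 measured ligands and receptors of the slit, netrin, RGM and FLRT families, 5 rose and 3 fell, with a median of -0.03. SLIT2, a secreted repellent, fell (-0.42 ± 0.06). FLRT3, an adhesion protein that binds UNC5 receptors (0.50 ± 0.12), NTNG1, a membrane-anchored netrin (0.34 ± 0.03), and ROBO4, an endothelial roundabout receptor (0.29 ± 0.06), rose. FLRT3 lost its call without shCtrl replicate 1 (adjusted p = 0.0528 by limma) and without shCtrl replicate 2 (0.0574). NTNG1 lost its call with its 3 probe sets averaged (0.06), and ROBO4, read from a probe set with the suffix _x_at, was at 0.53 by its most variable one. Over the 86 partner genes 13 rose and 18 fell, or 36.0%, against the 32.7% of all genes. These shares are not at equal level, since 67 of the 86 reached a mean of 5. Of all genes that bright 43.4% were called, and of dimmer ones 9.27%, so the 36.0% is not read as an excess.

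**Figure D5:**
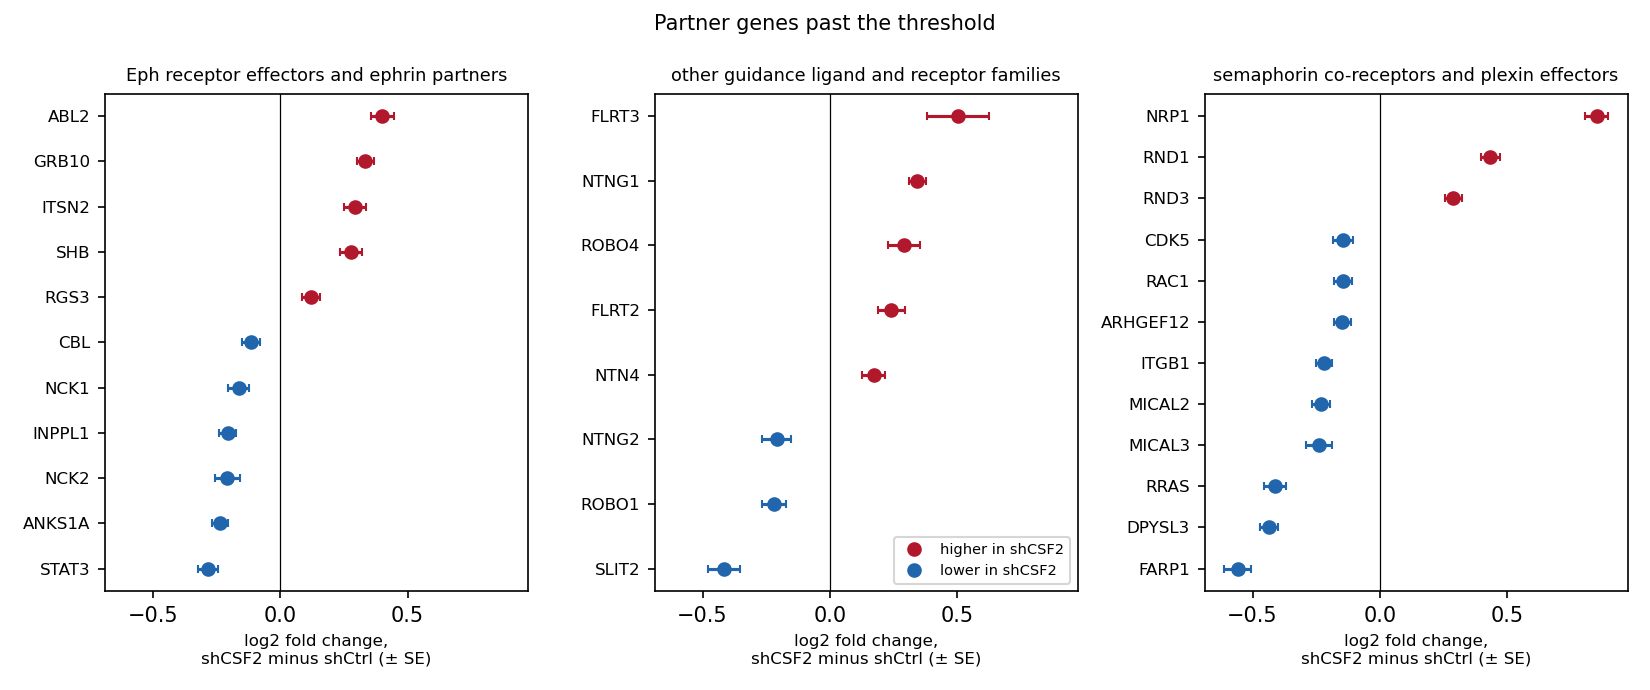
Log2 fold change (shCSF2 minus shCtrl) with its moderated standard error for the 31 partner genes past an adjusted p of 0.05, by list. Red points are higher and blue points lower in shCSF2 cells, and NRP1 lies farthest right at 0.85 and FARP1 farthest left at -0.56.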

How the data were processed

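Total RNA from 3 shCSF2 and 3 shCtrl samples, labelled as biological replicates, was hybridised to PrimeView arrays from 200 ng each, per the labels' protocols. The authors deposited log2 values, 1 for each probe set on each array. RMA, oligo and limma are named in the submitters' processing notes, which give no role or version. Signals of single probes were not analysed here.

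Of 49395 probe sets, 102 were controls. The platform annotation gave 44988 of the others 1 symbol and 1832 several, and 2473 were not listed. Probe sets with several symbols or none named no gene, which left out 1 probe set shared by PLXNB3 and another gene. Of 89 partner genes, 86 had a probe set and were read. The brightest probe set stood for each gene.

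Differences (shCSF2 minus shCtrl) were tested two-sided in limma 3.58.1 (lmFit, eBayes; R 4.3.3), with no block or filter, and adjusted by the Benjamini-Hochberg method over 18132 genes, or 49293 probe sets. Errors of log2 fold changes are moderated standard errors and intervals are 95%. The fit was tested on simulated data. All called members were named, with all arrays for the 12 largest and for any called with a mean of at least 8. Of the others the 6 brightest were to be named, further members being chosen after their values were seen, and up to 4 called genes per partner list. The members and lists were chosen with earlier results of these data known. The alternatives were 2 filters, 3 normalisations, a variance trend with robust estimation, 2 other ways to represent a gene, a replicate block and leaving out each array. Deviations of same-numbered samples from their group means correlated by 0.03, 0.05 and 0.03 over all genes. The labels do not say whether equal numbers mark samples prepared together, and such correlations cannot decide it. Figures were drawn with matplotlib 3.10.9.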

Additional observations from a re-analysis of the deposited data

How the results depend on the processing

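The count of lower guidance genes was 17, where 16.0% of all genes were lower. It was 11 with the mean of all probe sets (16.5% of all genes) and 11 with the replicate block (14.7%). In fits without 1 array it ranged from 7 to 14 (12.5% to 13.9%). Among genes at or above the median level it was 11 of 24, where 29.8% of all such genes were lower. The count of genes whose groups do not overlap (29) was 15 among genes at or above the median level, where 24 of the 50 remained. That setting only removes genes and changes no value, so its 15 is not a loss. The share depends on level. At a mean of at least 5, 23 of 37 members and 60.0% of all genes had no overlap, and under 5, 6 of 13 members and 17.4% of all genes. With the replicate block the count of lower probe sets (23) was 15. The block ended the calls of EPHA6, EPHB1, EFNB3, SEMA3B, SEMA3F, SEMA4F, PLXNA2 and PLXND1. The labels do not say whether same-numbered samples were prepared together, and what these losses mean was not tested. The counts of higher genes (3 to 5), of higher probe sets and of partner genes stayed within 1.5 times their main value in all settings. No guidance gene was called higher in 1 of these settings and lower in another. Renewed quantile normalisation ended the calls of EPHA6, SEMA3B and PLXNA2, median centring those of EPHA6 and SEMA3B, and cyclic loess those of EPHA4, EPHA6, EFNB3 and SEMA3B. By their most variable probe set, EPHA6 was at 0.17 and PLXNA1 at 1.97e-06, both with no call, since that setting reads another probe set. Of the 29 members that did not pass, 10 passed in at least 1 setting: EFNB2, EPHB4 and PLXNA3 among genes at or above the median level, where fewer genes were tested, PLXNA3 also with the variance trend, EFNA1 with the replicate block, and EFNB1, SEMA3D, SEMA3E, SEMA3G, SEMA6A and SEMA6C as given with their values. Of the 12 named partner genes, 10 kept their call in every setting that held them.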
